A study of Drosophila melanogaster with 24 samples.

Results

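Whole male flies that had lost both copies of Rel were compared with flies that had lost one, in the absence of injury. The homozygotes (Reldel/Reldel) and the heterozygotes (+/Reldel) were each sequenced as 4 uninjured libraries, which is 8 of the 24 libraries of the study. The libraries were taken by their genotype and injury labels and not by measured values, although the comparison was chosen with earlier results of these data known. Both groups were male, aged 1 to 7 days, described as in a yw background and kept on molasses food at 25 °C, and both carried at least 1 copy of the Reldel chromosome. The other libraries, also 4 per group, came from uninjured wild-type (+/+) flies and from all 3 genotypes at 4 h after traumatic brain injury. RNA was extracted from whole flies, so a lower value from fewer cells of a type cannot be told apart from one with less RNA per cell.

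Rel encodes Relish, an NF-κB transcription factor of the fly. In the Imd pathway, peptidoglycan of certain bacteria is sensed by peptidoglycan recognition proteins, the signal passes through Imd, Fadd, Dredd and the Tak1 and IKK kinases, and Relish is cleaved and enters the nucleus. There it switches on genes for secreted antimicrobial peptides, which are made mainly by the fat body. Heterozygotes keep 1 working copy, so the pair asks what the last copy of Rel contributes to the transcriptome of an unchallenged fly.

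Library totals were 8544785 to 13190387 counts in heterozygotes and 9992750 to 13710472 in homozygotes, so 3 counts in a library corresponded to 0.218 to 0.358 CPM (counts scaled to a library of 1e+06). Rank correlations between libraries of a group were 0.963 to 0.988 in heterozygotes and 0.969 to 0.993 in homozygotes. Calls below mean an adjusted p (Benjamini-Hochberg over all genes tested) of less than 0.05 from edgeR's quasi-likelihood test, which also gave every adjusted p printed unless another tool is named. Log2 fold changes are homozygotes over heterozygotes, ± standard error, with 4 libraries in each group. Whether replicate libraries came from separate fly cultures is not stated, and the p-values rest on the spread among libraries, which may be technical.

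Of 13868 genes tested, 191 were called (1.38%), with 152 lower (1.1%) and 39 higher (0.281%) in homozygotes. The change was at least 2-fold in 94 of the lower and 14 of the higher genes. The 4 and 4 libraries did not overlap in 161 of the 191 called genes (84.3%), against 1064 of all genes tested (7.67%). The libraries did not weigh equally. Without heterozygous library 3, 607 genes were called, which included 190 of the 191. The count was 107 without heterozygous library 1 and 111 without heterozygous library 4. It was 110, 123 and 117 without homozygous library 1, 3 and 4 in turn. With each of the 8 libraries left out, 85 genes stayed called every time, 75 lower and 10 higher. DESeq2 called 388 genes, and edgeR called 95 when fitted to these 8 libraries alone.

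Rel itself was read first, as the check of the labels. Its levels were 53.8, 32.6, 25.6 and 43.3 CPM in the heterozygous libraries and 0.0997, 0, 0 and 0 CPM in the homozygous ones. A single count was left in homozygotes against 1820 in heterozygotes, a ratio of 1849-fold (95% exact Poisson interval of the lower count, 332 to 73050). Wild type had 69.8 ± 9.84 CPM and heterozygotes 38.8 ± 12.4 (SD, n = 4). The gene lies at 3R:9044183-9047977 on the minus strand (dm6) within the span of Nmdmc, a folate-pathway enzyme gene at 3R:9042508-9050555 on the same strand. Nmdmc had 14.0, 11.7, 13.2 and 14.2 CPM in heterozygotes and 10.7, 8.44, 9.22 and 7.58 in homozygotes, which did not overlap, and the difference was not called (-0.57 ± 0.21, adjusted p = 0.194). None of the 5 nearest tested genes on either side of Rel was called. Besides Nmdmc these were hyx, asRNA:CR31429, neur and tgo on one side and Mst85C, Kdm2, beag, Ada and pum on the other, with log2 values from -0.27 (pum) to 0.27 (Ada). Farther out but within 50 kb of Rel, CG31100 was called lower. CG31100 is named because it was called, and its call was kept in 1 of 8 cases with a library left out.

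Beyond Rel, a small set of genes was read in every heterozygous library and hardly at all in homozygotes. Across all called genes, 7 had 0 counts in all 4 homozygous libraries, and 5 of the 7 also had 0 in the 4 injured homozygous libraries. p24-2, of the p24 family of cargo carriers between the endoplasmic reticulum and the Golgi, had 23.0, 30.5, 42.1 and 29.5 CPM in heterozygotes and 0 in every homozygous library. It was at least 494-fold lower, with 3 counts assumed over the 4 homozygous libraries. Unc-115b, a LIM-domain actin-binding protein gene, had 44.8, 47.9, 87.4 and 66.6 CPM against 1.10, 0.579, 0 and 0 (log2 -7.28 ± 0.60, adjusted p = 3.58e-08). The groups were far apart for both genes.

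p24-2 (3R:9687402-9692794) and Unc-115b (3R:9687060-9692775) occupy the same stretch of the minus strand, so reads of either cannot be told apart where they overlap, and their drops are not separate observations. Each sits beside a close relative, eca and Unc-115a, and reads can be shared with these copies. eca had 73.6, 74.3, 90.2 and 90.5 CPM against 76.0, 67.6, 72.5 and 59.8, which overlapped (-0.25 ± 0.15, adjusted p = 0.454). Unc-115a had 171, 154, 186 and 173 CPM against 149.2, 115.3, 146.0 and 125.1, which did not overlap but was not called (-0.35 ± 0.11, adjusted p = 0.107). Neither relative showed a loss of that size.

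CG43680 (3L:15052998-15053351) had 8.14, 10.5, 5.25 and 5.53 CPM in heterozygotes and 0 in each homozygous library, at least 111-fold lower. CG13675 (3L:8160315-8165518) had 10.1, 11.8, 13.2 and 11.2 CPM against 0.0997, 0, 0 and 0, a ratio of 546-fold (97.9 to 21550). CG32581, on the X chromosome, varied more among heterozygotes, with 11.8, 3.1, 5.78 and 15 CPM against 0 throughout, at least 147-fold lower. Among injured heterozygotes and homozygotes CG32581 was read only in heterozygous library 1, at 4.33 CPM. Among noncoding RNAs, lncRNA:CR44547, lncRNA:CR43949 and lncRNA:CR43950 were at 0 in all 4 uninjured homozygous libraries and at means of 1.22, 1.18 and 1.09 CPM in heterozygotes. These are at least 18.6-fold, 17.95-fold and 16.3-fold lower. lncRNA:CR46350 left 1 count against 70, a ratio of 71.1-fold (12.8 to 2809).

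**Figure D1:**
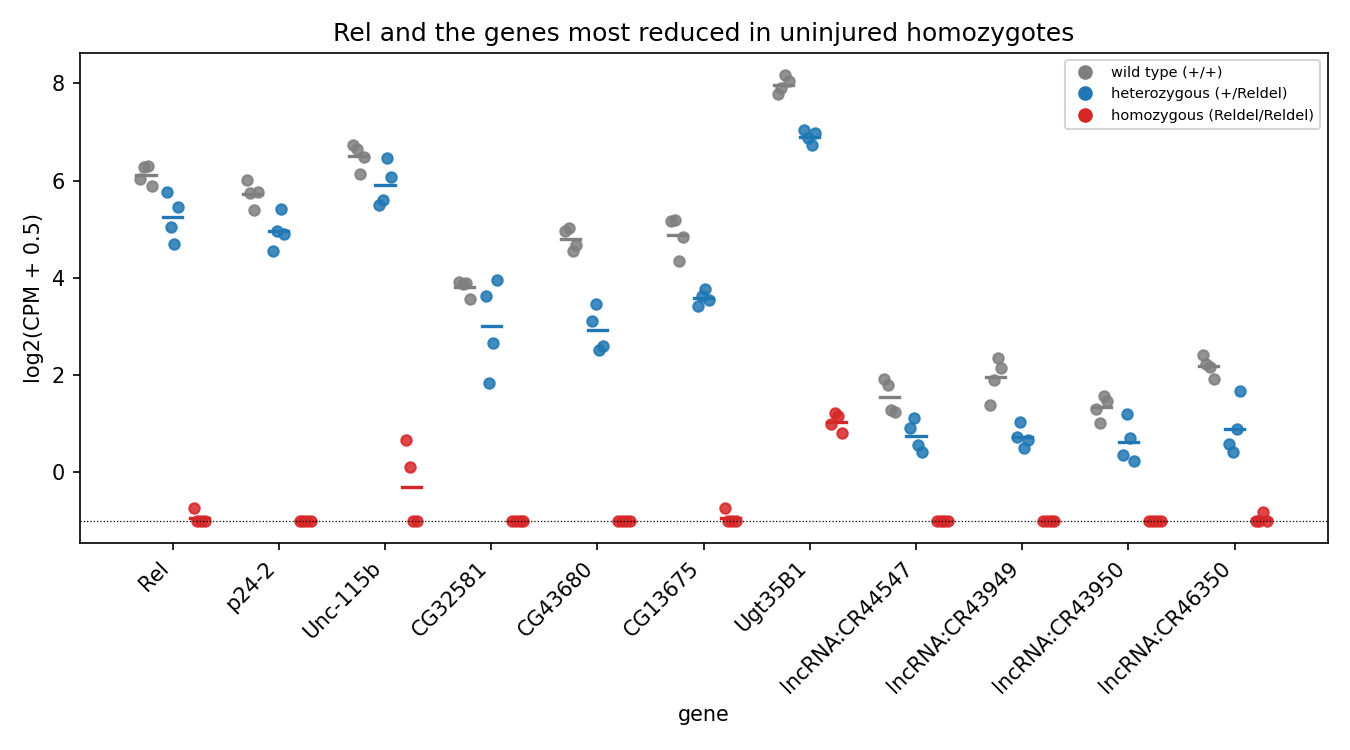
Levels of Rel and 10 strongly reduced genes in each uninjured library, as log2(CPM + 0.5), with 1 point per library, a bar at the mean of 4 libraries, and the dotted line at 0 CPM. All 4 homozygous libraries lie below all 4 heterozygous libraries for each gene drawn, and Ugt35B1 is the gene for which all 4 homozygous libraries stay above the dotted line, at 1.25 to 1.82 CPM.

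Ugt35B1, a UDP-glycosyltransferase that joins sugars to small molecules for detoxification, had the smallest adjusted p of all. It had 132, 117, 105 and 125 CPM in heterozygotes and 1.495, 1.82, 1.74 and 1.25 in homozygotes (-6.23 ± 0.20, adjusted p = 6.96e-16), so a low but steady signal remained. Its neighbours on 3R:11144346-11172664 were lower as well: CheA86a, Ugt302C1 and Ugt35A1 were called, which makes 4 called of 9 tested genes in that span, against 1.38% of all genes. The span was drawn to begin and end at called genes, so a high share is built in and tests nothing. Ugt35A1 went from 47.3, 37.6, 30.7 and 39.6 CPM to 22.4, 27.4, 26.0 and 25.9 (-0.61 ± 0.12, adjusted p = 0.00839). Reads of the glycosyltransferase copies can be shared. Ugt302C1 overlapped between the groups, and its call and that of CheA86a were lost with most single libraries left out, in 6 of 8 cases each.

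A second tier of genes fell by smaller factors, with narrow spreads in both groups. CG31226 fell from 421, 421, 359 and 376 CPM to 97.3, 83.5, 79.6 and 95.6 (-2.15 ± 0.15, adjusted p = 1.90e-09). CG6650 fell from 45.2, 45.1, 43.1 and 48.0 CPM to 13.7, 15.6, 14.4 and 16.4 (-1.59 ± 0.14, adjusted p = 8.71e-08), and CG14715 by 2.02 on the log2 scale. Spn77Bb, a serpin gene, was the most abundant of these, at 1010, 1240, 737 and 956 CPM against 252, 371, 227 and 339 (-1.73 ± 0.19, adjusted p = 3.33e-06). The groups did not overlap for any of the 4. sad, a cytochrome P450 of ecdysone synthesis, fell by 2.80, FucTA, a fucosyltransferase of neural glycans, by 1.14, and Gld, glucose dehydrogenase, by 0.94. The odorant-binding protein genes Obp56a and Obp56h fell by 1.81 and 1.80. Each of these 9 genes stayed called with every single library left out. Spn77Bb, sad, FucTA, Gld and the odorant-binding proteins were chosen after their values were seen.

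Of the antimicrobial peptide genes, DptB, AttA, Mtk and CecA1 were called lower in homozygotes. Of 14 tested members, 4 were called lower and 0 higher, against 1.1% and 0.281% of all genes, and all 14 log2 values lay below 0, with a median of -3.27 against 0.01 over all genes tested. The median was -2.82 with AttD and CecB, which had 0 counts in homozygotes, set at their bound. Genes were filtered over all 24 libraries, so members could enter through counts in other groups. Of the 14, 4 averaged below 1 CPM in both genotypes of the pair. With the 8 libraries alone only 6 passed the filter, with a median of -2.92. The groups did not overlap for 10 of the 14, against 7.67% of all genes tested. Summed over the list, heterozygotes had 109, 39.5, 34.5 and 64.6 CPM and homozygotes 16.1, 15, 24.4 and 14.6. Heterozygous libraries 1 and 4 were the 2 highest and no homozygous library reached the lowest heterozygous one.

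DptB, a diptericin active against Gram-negative bacteria, had 23.9, 3.22, 0.913 and 6.12 CPM against 0.0997, 0.0827, 0.218 and 0 (-6.22 ± 1.23, adjusted p = 0.00744). AttA, an attacin, had 27.0, 5.96, 2.81 and 12.1 CPM against 0.897, 0.662, 0.508 and 0.357 (-4.32 ± 0.91, adjusted p = 0.0130). Mtk, metchnikowin, had 13.2, 4.29, 1.598 and 3.86 CPM against 0.0997, 0.248, 0.944 and 0.713 (-3.43 ± 0.72, adjusted p = 0.0127). In all 3, heterozygous library 1 was the highest and library 3 the lowest, and the groups stayed apart. CecA1, a cecropin, showed the smallest of the 4 called changes and the tightest groups, at 13.4, 14.5, 15.6 and 18.4 CPM against 8.07, 9.18, 7.04 and 7.31 (-0.97 ± 0.24, adjusted p = 0.0384), and its call was kept in 1 of 8 cases with a library left out. Attacin and cecropin genes have near-identical copies that can share reads, so single values are uncertain.

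The remaining members were not called. AttD had 0.697, 0.477, 0.456 and 0.754 CPM in heterozygotes and 0 in every homozygous library, at least 9.48-fold lower with no overlap, yet its adjusted p was 0.110. AttB (-2.39 ± 0.66, adjusted p = 0.0769) and AttC (-3.62 ± 1.03, adjusted p = 0.0864) did not overlap either. Drosomycin (Drs), an antifungal peptide driven largely by the Toll pathway, overlapped fully, at 7.44, 4.77, 6.69 and 7.38 CPM against 4.39, 3.72, 13.1 and 3.74 (-0.06 ± 0.45, adjusted p = 0.961), and the sign of its change turned with homozygous library 1, 2 or 4 left out. The calls depend on few libraries. Without heterozygous library 1, 0 of the 14 were called, and without heterozygous library 3 there were 7. Without homozygous library 1, 3 or 4 there were 2. DESeq2 called 10 of 14 lower, and edgeR on the 8 libraries alone called 2 of the 6 it could test.

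Listericin, an antibacterial peptide gene outside that list, had 22.9, 24.2, 25.2 and 30.3 CPM in heterozygotes and 1.79, 1.57, 3.12 and 1.605 in homozygotes (-3.63 ± 0.33, adjusted p = 1.62e-07). It stayed called with each library left out.

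**Figure D2:**
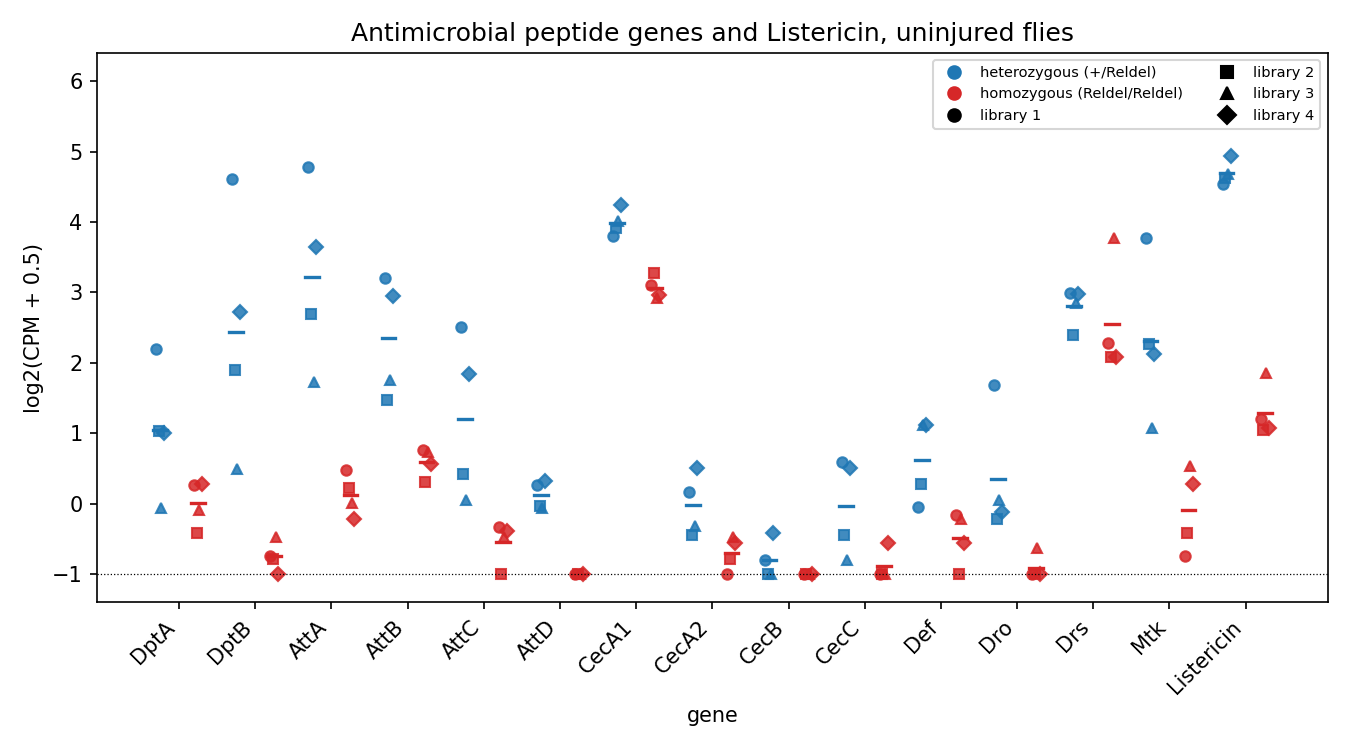
Antimicrobial peptide genes and Listericin in each uninjured heterozygous and homozygous library, as log2(CPM + 0.5), with a marker shape per library number, a bar at the mean of 4, and the dotted line at 0 CPM; equal numbers do not pair libraries. Heterozygous libraries spread widely for AttA (2.81 to 27.0 CPM) and little for Listericin (22.9 to 30.3 CPM), and Drs overlaps.

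The Imd pathway genes include the receptors, adaptors and kinases upstream of Relish and the secreted and inhibitory members that act on its ligands and receptors. Of 26 tested genes of the Imd list, Rel, the deleted gene itself, was the only one called (3.85%, against 1.38% of all genes). The median was -0.10. At the share of all genes, a list of this size can hold no other call. The receptor PGRP-LC had 59.6, 44.6, 35.7 and 45.6 CPM against 28.1, 40.3, 32.3 and 36.3, with overlap (-0.44 ± 0.16, adjusted p = 0.206). The adaptor imd (-0.09 ± 0.11), the caspase Dredd (-0.12 ± 0.10), the kinase Tak1 (-0.03 ± 0.13), IKKbeta (-0.11 ± 0.14) and its partner key (0.03 ± 0.10) all had overlapping groups. After Rel the members farthest below 0 were PGRP-SC1b, PGRP-SB1, PGRP-SD and the inhibitory receptor PGRP-LF (-1.06 ± 0.29, adjusted p = 0.0725). PGRP-SC1b, a secreted amidase, had 0.310, 2.50, 7.30 and 0 CPM against 0.0997, 0.0827, 0.799 and 0.535, with overlap (-2.65 ± 0.95, adjusted p = 0.188). PGRP-SB1, another amidase, had 8.76, 3.94, 2.13 and 5.45 CPM against 0.698, 1.41, 1.597 and 2.05 (-1.80 ± 0.51, adjusted p = 0.0872), without overlap. PGRP-SD, a secreted recognition protein, and pirk, an inhibitor of the pathway, did not overlap either (-1.56 ± 0.50 and -0.73 ± 0.34, adjusted p = 0.133 and 0.321).

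Other immune and stress lists held no called gene: 0 of 21 Bomanins and other Toll peptides, 0 of 23 Toll pathway genes, 0 of 18 JAK-STAT and Turandot genes and 0 of 24 genes of JNK signalling, wounding and death, with medians of -0.34, -0.33, -0.04 and -0.16. With 1.38% of all genes called, lists of these sizes can hold 0 calls at the general share. Log2 values lay below 0 in 15, 22, 9 and 21 members in turn, against 6794 of all 13868 genes. Of 19 heat shock genes, Hsc70-3 was called.

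Detoxification genes held 5 lower and 0 higher calls among 54 tested (9.26%, against 1.38% of all genes), with a median of -0.15. Besides Ugt35B1, Cyp12c1, a mitochondrial cytochrome P450, fell from 28.1, 19.9, 16.4 and 14.8 CPM to 2.89, 2.56, 4.07 and 3.65 (-2.58 ± 0.31, adjusted p = 1.74e-05). GstD3, a glutathione transferase, fell from 31.4, 27.1, 23.96 and 30.5 CPM to 13.8, 17.4, 13.1 and 15.9 (-0.91 ± 0.14, adjusted p = 0.000530). Neither overlapped. Cyp6w1 had 680, 281, 165 and 536 CPM against 117, 182, 107 and 161 (-1.55 ± 0.33, adjusted p = 0.0130), where heterozygous library 3 fell within the homozygous range, and the call was lost without heterozygous library 1 or 4 or homozygous library 1 or 3. Cyp28a5 was also called (-1.20 ± 0.29, adjusted p = 0.0318). The list held 10 calls without heterozygous library 3 and 3 without heterozygous library 1 or 4 or homozygous library 1 or 3. GstD3 (3R:12373068-12373813) stands in a cluster of GstD genes that can share reads. Of 11 tested, GstD3 was the only one called, although 10 log2 values lay below 0 and 6 did not overlap (7.67% of all genes), for example GstD5 at 4.73, 4.41, 4.56 and 4.78 CPM against 1.59, 1.16, 2.11 and 1.87 (-1.45 ± 0.54, adjusted p = 0.200).

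Some genes of protein folding and export in the endoplasmic reticulum were called lower in homozygotes. In a list of 38 such genes compiled after the values were seen, 11 were called lower and 0 higher, against 1.1% and 0.281% of all genes, and the remaining 27 were not called. The median was -0.24, and the groups did not overlap for 15, against 7.67% of all genes. Since members of the list had been noticed first, these counts describe it and test nothing. Summed over the list, heterozygotes had 8050, 7230, 7050 and 7740 CPM, homozygotes 6240, 5630, 6140 and 6110, and wild type 6080 to 6790. All 4 heterozygous libraries lay above the wild-type range, and homozygous library 1, 3 and 4 lay within it.

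Hsc70-3, the fly BiP chaperone, had 731, 707, 625 and 716 CPM against 529, 411, 529 and 489 (-0.50 ± 0.11, adjusted p = 0.0177). Gp93, the relative of mammalian GRP94, had 417, 348, 344 and 388 CPM against 262, 205, 258 and 255 (-0.61 ± 0.13, adjusted p = 0.0167). Neither overlapped. Sil1, which exchanges the nucleotide of BiP, moved most but unevenly, with 128, 53.9, 18.2 and 102 CPM against 16.0, 17.1, 20.04 and 20.5 (-2.03 ± 0.44, adjusted p = 0.0146), where heterozygous library 3 lay inside the homozygous range. Ire1, a sensor of unfolded proteins, behaved alike, at 212, 116, 67.3 and 135 CPM against 61.4, 70.0, 67.4 and 76.0 (-0.95 ± 0.21, adjusted p = 0.0191). Its target Xbp1 was not called (-0.12 ± 0.16, adjusted p = 0.751).

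Also called lower were ergic53, a cargo lectin (-0.66 ± 0.15), CG2918, the relative of mammalian HYOU1 (-0.65 ± 0.13), SrpRbeta of the signal recognition particle receptor (-0.61 ± 0.15), P58IPK, a co-chaperone (-0.56 ± 0.13), Uggt, the folding sensor for glycoproteins (-0.52 ± 0.12), and Edem1, which marks misfolded glycoproteins (-0.44 ± 0.11), with Fkbp14 at -0.42 ± 0.10. A like order of libraries appeared in 3 metabolic genes chosen after their values were seen. Cpr, the electron donor of cytochrome P450 enzymes, had 2000, 1420, 582 and 1770 CPM against 411, 482, 618 and 733 (-1.36 ± 0.34, adjusted p = 0.0422), and LpR2, a lipophorin receptor, and Fatp1, a fatty acid transporter, were called at -1.21 ± 0.28 and -0.95 ± 0.23. In each, heterozygous library 1 was highest and library 3 lowest. In the list of 38, 1 gene was called lower without heterozygous library 1, 1 without library 4, 9 without library 2 and 13 without library 3. DESeq2 called 15 lower, edgeR with a replicate block 9, and edgeR on these 8 libraries alone 0. Without homozygous library 1 the count was 2, it was 4 without homozygous library 2 or 3 and 5 without homozygous library 4, and with the 12 uninjured libraries it was 6. In the injured pair, 0 of the 38 were called and the median was -0.05.

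**Figure D3:**
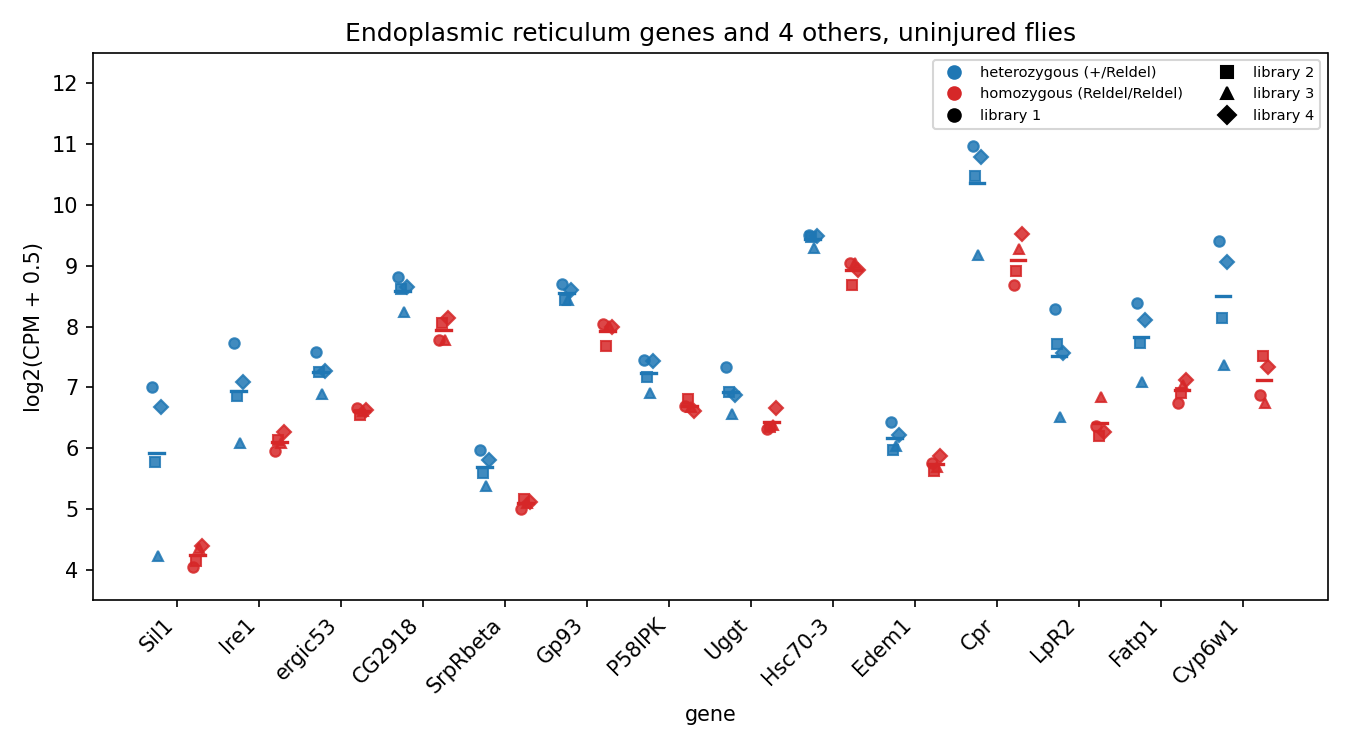
Endoplasmic reticulum genes, Cpr, LpR2, Fatp1 and Cyp6w1 in each uninjured library, as log2(CPM + 0.5), with a marker shape per library number and a bar at the mean of 4 (heterozygous and homozygous flies); equal numbers do not pair libraries. Heterozygous library 3 (triangles) is the lowest of its group for Sil1 (18.2 CPM) and Cpr (582 CPM), within the homozygous range.

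The 39 higher genes changed less. CG33926 rose most, from 2.56, 3.1, 2.43 and 3.52 CPM to 18.2, 9.84, 16.3 and 12.7 (2.30 ± 0.37, adjusted p = 0.000914). CG3397 rose from 7.52, 8.82, 10.9 and 10.6 CPM to 34.3, 15.6, 29.0 and 26.7 (1.48 ± 0.26, adjusted p = 0.00540), and had 0 counts in all 4 uninjured wild-type libraries. The groups did not overlap in either. CG18473 had 39.4, 46.3, 36.0 and 33.5 CPM against 78.9, 83.9, 73.0 and 83.3 (1.04 ± 0.14, adjusted p = 5.83e-05), and qjt had 23.3, 27.3, 27.5 and 17.7 against 49.2, 47.4, 45.5 and 50.8 CPM (1.01 ± 0.13, adjusted p = 5.50e-05). SmydA-2, a SET and MYND domain protein gene, rose by 1.24 ± 0.22 and CG18302 by 1.34 ± 0.26. All 6 stayed called with each library left out.

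Other increases rested on fewer libraries. smp-30, a regucalcin relative, had 77.9, 116, 97.4 and 59.7 CPM against 270, 139, 266 and 176 (1.28 ± 0.30, adjusted p = 0.0308), and its call was lost in 5 of 8 cases with a library left out. CG13026 was called (1.19 ± 0.30, adjusted p = 0.0492) with 1 high homozygous library at 66.1 CPM against 23.6 to 27.4 in the other 3. Zasp67, a Z-disc protein of muscle (1.46 ± 0.37), TpnC47D, a troponin C (0.87 ± 0.22), and Gpdh1, glycerol-3-phosphate dehydrogenase (0.57 ± 0.14), were called with adjusted p of 0.0455, 0.0433 and 0.0421 and were lost in 6, 7 and 6 of 8 cases. The small genes lncRNA:CR43306 and asRNA:CR45974, neighbours on 3L, rose by 1.04 ± 0.23 and 1.28 ± 0.28. Use of strand in counting is not stated, so antisense and overlapping genes are uncertain.

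In a list of 15 glycolysis and hypoxia genes, Gpdh1 was the only call (6.67%, against 1.38% of all genes). The median was 0.40, and the groups did not overlap for 8, against 7.67% of all genes. Summed over the list, heterozygotes had 4020, 3970, 4610 and 4410 CPM, homozygotes 5320, 6560, 6050 and 5310, and wild type 4000 to 4530, so every homozygous library lay above every library of the other genotypes. Gapdh1, glyceraldehyde-3-phosphate dehydrogenase, had 358 ± 73.0 CPM in heterozygotes and 666 ± 136 in homozygotes (SD, n = 4) and missed the threshold (0.90 ± 0.23, adjusted p = 0.0549). Pglym78, a phosphoglycerate mutase, and Pgk, phosphoglycerate kinase, did not overlap and were not called (0.70 ± 0.25 and 0.56 ± 0.24, adjusted p = 0.191 and 0.292). In the injured pair the list had 0 calls, a median of 0.01 and overlapping sums. Muscle markers also had a median above 0 (0.38), and their part in these values was not tested. Gapdh1, Pglym78 and Pgk were chosen after their values were seen.

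Tissue marker lists were read to see whether the make-up of the flies moved with genotype. Muscle, with 1 of 23 called higher, had a median of 0.38 and summed levels of 13700 to 15000 CPM in heterozygotes against 14800 to 21900 in homozygotes. Testis and germline had 0 of 34 called and a median of 0.25, with 33 of 34 log2 values above 0, and 5910 to 8510 against 7530 to 9400 CPM. The accessory gland list had 1 of 33 called, Est-6, an esterase of seminal fluid (-0.60 ± 0.15, adjusted p = 0.0358), a median of -0.22, and 18800 to 22300 against 13300 to 23100 CPM. Fat body had 0 of 17 called and a median of -0.09, at 2060 to 3110 against 2240 to 2570 CPM. Summed levels overlapped between the genotypes in these 4 lists. Since 1.38% of all genes were called, few or no calls in lists of these sizes say little. Log2 values lay below 0 in 21 of 22 neuron, 10 of 13 glia, 25 of 32 eye and 19 of 21 hemocyte genes. They did so in 16 of 43 digestive enzyme and 7 of 9 female genes. Neuron (median -0.29), glia (-0.13), eye (-0.32), hemocyte (-0.46), digestive enzyme (0.31) and female (-0.22) lists held no called gene. Neither did 43 ribosomal protein genes (median -0.03) or 12 mitochondrially encoded genes (0.26), the latter at 17000 to 33200 CPM against 19100 to 47700. Their part in the results above was not tested.

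The same genotypes after injury gave a separate set of 8 libraries. There 126 genes were called (0.909%), 105 lower (0.757%) and 21 higher (0.151%), and the libraries did not overlap in 477 genes (3.44%). Of the genes called without injury, 77 were called in the same direction after it, 68 lower and 9 higher, which is 40.3% of the uninjured and 61.1% of the injured calls, and 0 were called in the opposite direction. Both pairs were tested in a shared fit with a common estimate of spread for each gene, so calls in both are not independent. Fewer genes were called in both when each pair was fitted alone. The log2 value had the same sign in 175 of the 191 (91.6%), against 47% of all genes tested. The genes were chosen by their uninjured values, so smaller values in the other pair can follow from that choice. For the 152 lower genes the median was -1.35 without injury and -0.74 after it, and for the 39 higher ones 0.87 and 0.45. Of the 85 genes that stayed called with each uninjured library left out, 59 were also called after injury, against 18 of the other 106.

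Ugt35B1 had nearly the same value in both pairs, -6.23 ± 0.20 and -6.23 ± 0.22, as had CG31226 (-2.15 and -2.38), Listericin (-3.63 and -3.10), Obp56a (-1.81 and -1.82), sad (-2.80 and -2.81) and CG33926 (2.30 and 2.04). Other genes were called in the uninjured pair and lay near 0 in the injured one: Cyp6w1 (-0.13 ± 0.32), Cpr (0.03 ± 0.33), LpR2 (-0.06 ± 0.28), Ire1 (-0.14 ± 0.21), ergic53 (0.16 ± 0.15) and Taf12L (-0.05 ± 0.17). Of the 14 antimicrobial peptide genes, 10 were called lower after injury, against 0.757% of all genes. AttA and Mtk, called without injury, were not called after it (-1.11 ± 0.59 and -0.97 ± 0.46), whereas AttB, AttC and DptA were. None of these contrasts between injury states passed a test of the difference itself. In edgeR 0 of 13868 genes were called for it (0%), with 1433 at an unadjusted p under 0.05 and a smallest adjusted p of 0.478, and DESeq2 called 1, Spn88Eb, a serpin gene.

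**Figure D4:**
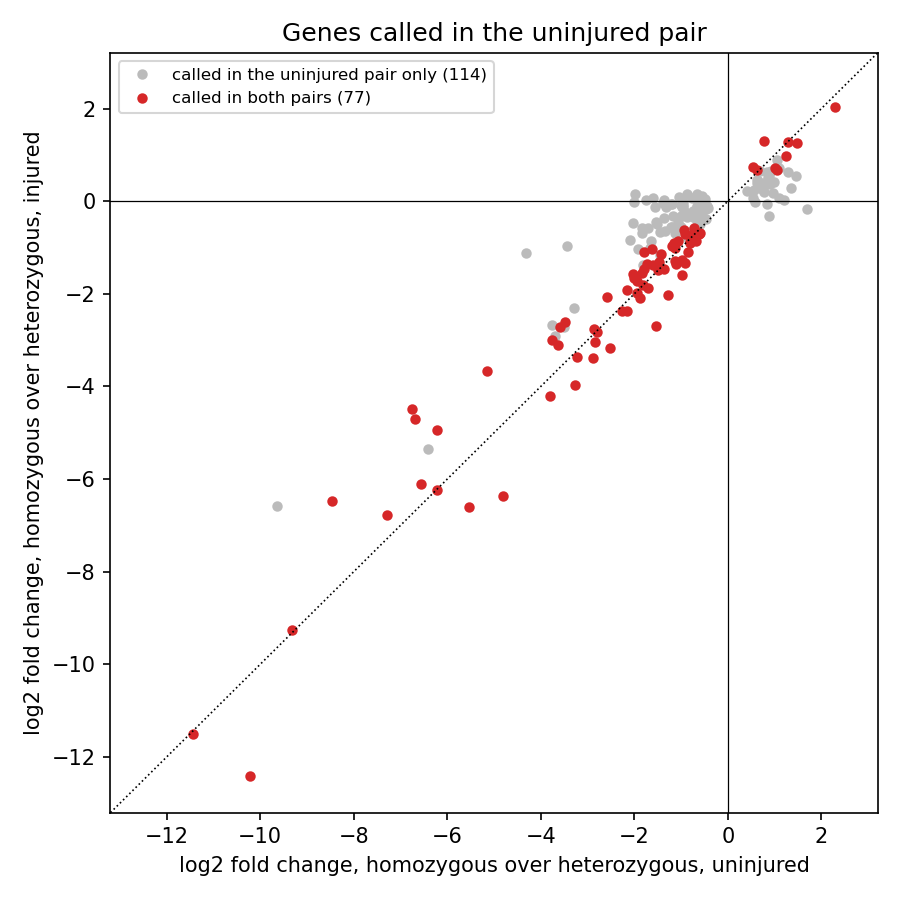
Log2 fold change of homozygotes over heterozygotes without injury (horizontal) and after injury (vertical), 1 point for each of the 191 genes called without injury, with the dotted line at equal values; values of genes at 0 counts depend on the prior count of the fit. The 77 genes called in both pairs lie near the line, and many of the other 114 lie close to 0 on the vertical axis.

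Called genes were unevenly spread over the genome. Chromosome 3, which carries Rel, held 134 called of 6121 tested genes (2.19%), against 56 of 7685 on the other chromosomes (0.729%), so 70.2% of the calls came from 44.1% of the genes tested. The share was 2.54% on arm 3L (68 genes) and 1.92% on arm 3R (66), and 0.997% on X, 0.639% on 2L and 0.647% on 2R. On 3R it was 4.88% within 1 Mb of Rel (14 of 287), 1.94% at 1 to 2 Mb, 2.99% at 2 to 5 Mb (22 of 735) and 1.16% farther away (25 of 2162). Each of these classes pools both sides of Rel, which differed. Toward lower coordinates the share was 3.5% within 1 Mb, 0.69% at 1 to 2 Mb and 0.455% at 2 to 4 Mb. Toward higher coordinates it was 6.25%, 3.54% and 5% at the same distances, and 1.99% at 15 to 20 Mb. On 3L, 62 of 1663 genes between 8 and 22 Mb were called (3.73%) and 6 of 1016 outside (0.591%), a window chosen after the values were seen. Of the 85 genes that stayed called with each library left out, 66 (77.6%) were on chromosome 3. In the injured pair the share was 1.58% on chromosome 3 and 0.377% elsewhere.

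Both genotypes carry the Reldel chromosome, in 1 and 2 copies, and the homologue that heterozygotes carry is described only as +. Loss of Rel and other sequence carried by the Reldel chromosome cannot be told apart in this pair. Nor can loss of Rel be told apart from unlinked differences between the flies on other chromosomes. There 56 genes were called, 15 of them also after injury. Of 190 called genes with coordinates, 66 lay within 50 kb of another called gene, in 30 runs. The matching share for genes drawn from all those tested was not computed, so these counts are descriptive only. Noncoding RNA genes were called at 2.39% (31 of 1297) and protein-coding genes at 1.25% (155 of 12399).

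**Figure D5:**
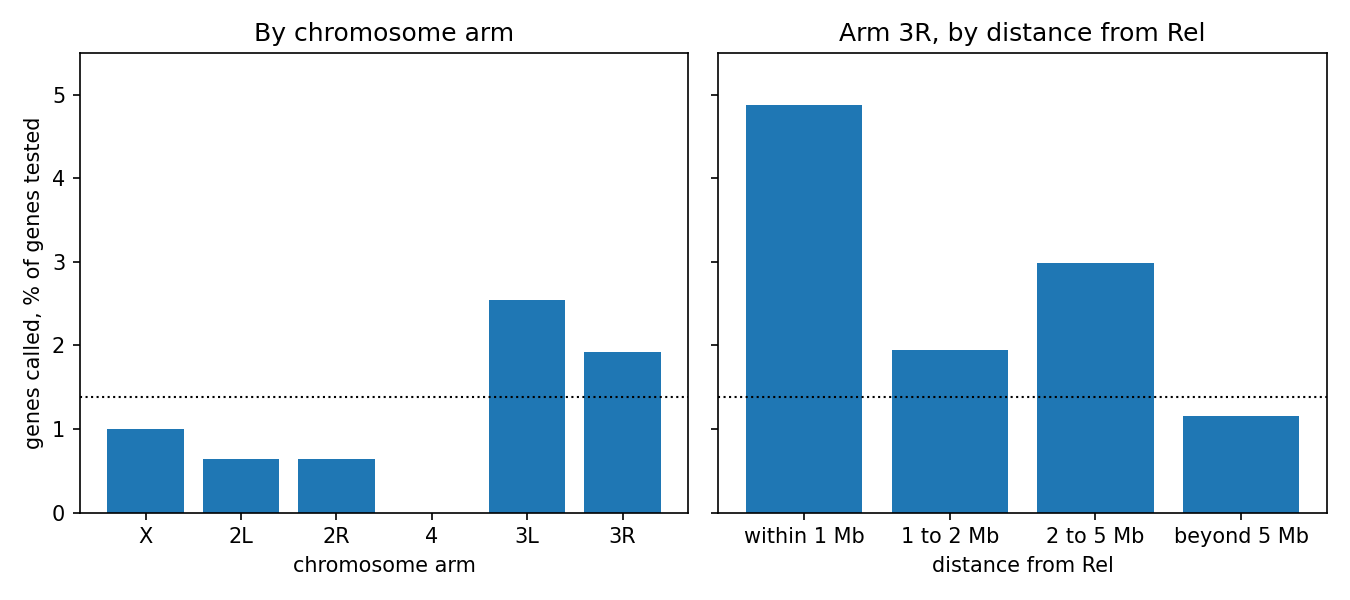
Share of tested genes called in the uninjured pair, in percent, by chromosome arm (left) and, on arm 3R, by distance from Rel (right), with the dotted line at 1.38% over all genes. The bars for 3L (2.54%) and 3R (1.92%) stand above the line and the share within 1 Mb of Rel is 4.88%. Each distance class pools both sides of Rel, which differed in share.

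Wild-type libraries place the pair on a longer scale, though each comparison shares libraries with the others. Homozygotes against wild type gave 549 called genes (3.96%) and heterozygotes against wild type 69 (0.498%). For some genes heterozygotes stood between the other genotypes: Ugt35B1 had 251 ± 29.5 CPM in wild type, 120 ± 11.5 in heterozygotes and 1.58 ± 0.259 in homozygotes (SD, n = 4). CG31226 had 736 ± 32.0, 394 ± 31.7 and 88.99 ± 8.76, and CG43680 27.7 ± 4.38, 7.35 ± 2.47 and 0. Among the increases, CG18473 had 9.72 ± 1.49, 38.8 ± 5.53 and 79.8 ± 5.05, and CG3397 0, 9.47 ± 1.59 and 26.4 ± 7.86. For others heterozygotes were nearer to wild type than homozygotes were, with means above that of wild type. Listericin had 16.6 ± 4.46, 25.6 ± 3.23 and 2.02 ± 0.739, the heterozygotes standing above wild type. DptB had 7.22 ± 5.33, 8.55 ± 10.5 and 0.100 ± 0.0898, with a heterozygous spread larger than its mean. Obp56a had 12.1 ± 2.86, 14.9 ± 4.57 and 4.23 ± 0.981, and Gld 164 ± 23.0, 166 ± 17.0 and 86.5 ± 11.4. For other genes homozygotes were nearer to wild type, as with Gp93 at 291 ± 41.4, 374 ± 34.5 and 245 ± 26.5 and SrpRbeta at 39.9 ± 5.17, 51.7 ± 9.20 and 33.7 ± 1.72 CPM.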

How the data were processed

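The authors deposited RSEM expected counts per gene for all 24 libraries. The authors' tools, per the submitters' processing notes, included STAR 2.4.2a and RSEM 1.2.22, besides CASAVA and edgeR 3.10.5, on build dm6; the annotation and strand setting are not given in the sources used here. All values were whole, so rounding changed nothing, and there were 0 columns of other samples. Of 17768 genes, 13868 passed filterByExpr. Counts were tested with the two-sided quasi-likelihood test of edgeR 4.0.16 (R 4.3.3, TMM factors, 1 mean per group over 24 libraries, 18 residual degrees of freedom). Alternatives were DESeq2 1.42.0, other factors, filters and sample sets, a replicate block, and each library left out. A standard error is the absolute log2 change divided by the root of its F statistic. CPM use effective library sizes. A group at 0 was given 3 counts over its 4 libraries, and intervals are 95%; both cover counting error only, since PCR copies are not independent molecules. Coordinates are Ensembl 115 (dm6, counted from 1).

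The comparison, gene lists and rules were chosen with earlier results of these data known. Genes named were Rel, the tested antimicrobial peptide and Imd genes, the 12 largest non-overlapping changes each way averaging 1 CPM or more in the higher group, the 10 smallest adjusted p each way, 4 members of lists with at least 2 calls, the 5 nearest genes on each side of Rel, and the best calls shared with the injured pair; not every one is printed. Others (the endoplasmic reticulum list, GstD, Ugt35A1, Ugt302C1, CheA86a, eca, Unc-115a, TpnC47D, Gpdh1, Fatp1, Hsc70-3, Est-6, Cyp28a5, Fkbp14 and those marked in the text) were chosen after their values were seen.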

Additional observations from a re-analysis of the deposited data

Results flagged for a closer look

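In 256 groups of 4 libraries (each named gene in each uninjured genotype), 1 library lay far from the other 3 in 16, by the ratio of its gap to the range on log2(CPM + 0.5). Chance gives about 1 in 20 such groups.

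In homozygotes, 5 of these were genes at 0 or nearly so in the other libraries: Rel at 0.0997 CPM in library 1, CG13675 at 0.0997 in library 1, CecC at 0.178 in library 4, Dro at 0.145 in library 3 and lncRNA:CR46350 at 0.0726 in library 3, each with 0 in the other 3. Drs stood at 13.1 CPM in homozygous library 3 against 3.72 to 4.39 in the others, and CG13026 at 66.1 CPM in library 2 against 23.6 to 27.4. Homozygous library 2 was low for Gp93 (205 CPM against 255 to 262) and eff (522 against 573 to 579) and high for IKKbeta (22.3 against 20.8 to 20.9).

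In heterozygotes, library 1 was high for Dro (2.71 CPM against 0.358 to 0.533) and CG17224 (49.1 against 39.3 to 40.4). Library 2 was high for Uev1A (106 against 90.4 to 92.6) and low for CG14715 (7.16 against 9.07 to 9.47). Library 3 was high for CG14314 (76.9 against 52.8 to 54.9) and low for Est-6 (654 against 947 to 1000).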

How the results depend on the processing

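Other size factors, either filter and the replicate block left the counts of called genes within 1.5 times (172 with the replicate block; same-numbered libraries correlated at -0.335 to 0.331 in the uninjured pair, so the numbers were not taken to pair them), and no called gene changed sign under any alternative run for the uninjured pair. DESeq2 called 388 genes (95 higher, 293 lower), 142 for heterozygotes against wild type and 1 for the difference between injury states. With the 8 libraries compared alone, edgeR called 95 (23 higher, 72 lower), 57 in the injured pair and 30 in both; fewer libraries enter that fit. With 1 library left out the uninjured count ran from 107 to 607 (13 to 137 higher, 89 to 470 lower), and heterozygotes against wild type from 33 to 150; the cause was not tested. Of 72 named genes called, 37 stayed called with each library left out.

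Among genes not called, neur had a log2 value of 0.00 with the 12 uninjured libraries, against a value just below 0. Values crossed 0 with 1 library left out, ranging from -0.75 to 0.12 for Drs, -0.70 to 0.47 for PGRP-SC2, -0.037 to 0.106 for Fadd, -0.117 to 0.008 for Tak1, -0.003 to 0.061 for Tab2, -0.056 to 0.066 for key, -0.048 to 0.044 for Uev1A, -0.026 to 0.188 for cad, -0.062 to 0.763 for asRNA:CR31429, -0.111 to 0.055 for neur, -0.106 to 0.043 for Mst85C and -1.09 to 0.46 for GstD4. Below about 0.218 to 0.358 CPM a library holds under 3 counts, which limits AttD, CecB, CecC and GstD4.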
